A study of Rattus norvegicus with 6 samples.

Results

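The hepatocyte nuclear factors HNF4α (Hnf4a), HNF4γ (Hnf4g) and HNF6 (Onecut1) and the FoxA factors (Foxa1, Foxa2 and Foxa3) were followed in rat β-cells after COUP-TFII depletion. They were chosen by name, as hepatocyte nuclear factors and FoxA factors that may act with or against COUP-TFII, and not by their signals. Of these 6 genes, 5 had a probe set listed under their symbol, with 8 probe sets in all, out of 31042 probe sets and 14217 gene symbols. Hnf4g was matched to no probe set and was not analysed here. Rat insulinoma 832/13 INS-1 cells, used between passages 7 and 25 and grown in 11 mM glucose, were electroporated with siRNA against COUP-TFII or with scrambled siRNA and, by the study's siRNA protocol, cultured for 48 h. RNA of 3 samples of each kind, biological replicates by their labels, was hybridised to 1 Affymetrix rat 230 2.0 array each. Both groups are the same transformed β-cell line, which differs from islet β-cells in that it divides continuously, and both went through the same electroporation. The question was whether the RNA of these factors, of their partners and of their target genes differed between COUP-TFII depleted and control cells.

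HNF4α and HNF4γ are nuclear receptors, like COUP-TFII, and bind DNA as homodimers at direct repeats of a short half-site. COUP-TFII can occupy the same repeats and so act with or against HNF4α on a gene. FoxA proteins carry a winged-helix domain, open compacted chromatin and mark endoderm-derived tissues such as liver and pancreas. HNF6 is a cut-homeodomain factor of the developing liver and pancreas, where it acts upstream of the endocrine precursor gene Neurog3. In people, mutations of HNF4A cause inherited diabetes, and in mouse β-cells Foxa2 is needed for the K-ATP channel genes and for Pdx1.

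Hnf4a has 2 well-known transcription starts, an upstream one called P2, used in β-cells, and a downstream one called P1, used in adult liver. The RefSeq promoter table (build GRCr8) holds both, 35616 bases apart. It also holds 1 start each for Foxa2 and Foxa3. The 2 Hnf4a windows and that of Foxa2 are printed because these genes have a probe set above background and a window with motif matches. That of Foxa3 holds no match and is not printed. Each window runs from 250 bases before to 50 bases after the start, 5′ to 3′ on the gene's strand. Capitals mark exact matches, on either strand, to the Onecut core ATCAAT or the FoxA-type core TGTTTGT. These letters were chosen after the windows had been seen.

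Hnf4a upstream start (P2), chr3:172605970-172606269, plus strand: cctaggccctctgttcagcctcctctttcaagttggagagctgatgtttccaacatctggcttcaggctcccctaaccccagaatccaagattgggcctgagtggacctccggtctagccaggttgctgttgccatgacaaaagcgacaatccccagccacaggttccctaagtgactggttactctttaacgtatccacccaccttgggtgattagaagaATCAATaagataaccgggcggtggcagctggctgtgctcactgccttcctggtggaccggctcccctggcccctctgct
Hnf4a downstream start (P1), chr3:172641586-172641885, plus strand: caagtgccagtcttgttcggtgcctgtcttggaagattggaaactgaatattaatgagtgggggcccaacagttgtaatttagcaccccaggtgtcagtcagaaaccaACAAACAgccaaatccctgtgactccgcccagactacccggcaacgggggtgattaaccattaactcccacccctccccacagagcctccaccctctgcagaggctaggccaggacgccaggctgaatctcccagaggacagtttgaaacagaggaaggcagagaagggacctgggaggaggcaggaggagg
Foxa2, chr3:155927459-155927758, minus strand: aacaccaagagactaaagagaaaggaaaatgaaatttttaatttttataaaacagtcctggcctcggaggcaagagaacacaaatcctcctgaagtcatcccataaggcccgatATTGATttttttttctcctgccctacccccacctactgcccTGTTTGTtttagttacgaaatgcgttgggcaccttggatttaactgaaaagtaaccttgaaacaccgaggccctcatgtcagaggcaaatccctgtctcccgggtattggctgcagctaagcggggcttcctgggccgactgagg

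The P2 window holds 1 Onecut core, which begins 29 bases before the start. The P1 window holds 1 FoxA-type core 142 bases before the start. The Foxa2 window holds an Onecut core, read on the opposite strand, 136 bases before the start and a FoxA-type core 95 bases before it. Of all 33469 promoter windows of that length, 8.06% hold ATCAAT and 6.42% TGTTTGT. The nuclear receptor half-site AGGTCA (16.2% of windows), its direct repeat with a spacer of 1 base (0.0538%), the HNF4 core CAAAGTCCA (0.391%) and the FoxA core TGTTTAC (3.78%) were not found as exact letters in the windows of Hnf4a, Foxa2 and Foxa3. Whether a probe set reads P1 or P2 transcripts is not given in the sources used here, so the signals below are not assigned to a start.

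Each probe set is read out as 1 background-subtracted MAS5 intensity, here called its signal. Rat cells hold no Bacillus RNA, so the 27 Bacillus control probe sets gave a scale for background. Their highest signal was 20.7, a level that 36.2% to 43.7% of probe sets did not exceed on an array. Probe sets with both group means no higher than this are called dim (37.5% of all). The siRNA target was checked first. Nr2f2 1389554_at, for COUP-TFII, read 47.0, 27.7 and 23.8 in COUP-TFII depleted cells against 182, 235 and 179 in control cells for replicates 1, 2 and 3. Its log2 fold change was -2.65 (adjusted p = 0.404 from unpaired limma and 0.0185 with the replicate number as a block, but 0.402 with the block and without both replicate 2 arrays). A second probe set, 1370063_at, read 19.7, 22.2 and 21.3 in COUP-TFII depleted cells, at the background scale, against 79.8, 65.7 and 61.8 in control cells, and the third was dim. Of the β-cell markers 8 of 8 measured lay above the highest Bacillus signal on all arrays, whereas 0 of 9 hepatocyte markers did, and the defining ones, such as Alb, were dim. The summed signal of the hepatocyte markers ranged from 39.0 to 109 in COUP-TFII depleted cells and from 50.4 to 127 in control cells. Among markers of other cell types only Gcg, for glucagon, was above that signal on all arrays.

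Groups were compared on log2 signals, with signals under 1 set to 1, by limma fitted over all probe sets, two-sided, with Benjamini-Hochberg adjustment. None of the 8 probe sets of HNF and FoxA factors passed an adjusted p of 0.05 by unpaired limma, where 0% of all probe sets did, and 0 of 8 passed at an unadjusted p up to 0.05, against 2.31% of all (0.973% higher and 1.34% lower). With the replicate block 0 of 8 passed after adjustment, against 0.0161% of all probe sets, and 1 of 8, that of Hnf4a 1392969_at, passed at an unadjusted p up to 0.05, against 6.23% (2.72% higher and 3.51% lower). Without both replicate 2 arrays the block fit held 0 of 8. The methods' t-test called 0 of 8 at an unadjusted p up to 0.05, against 3.14% of all (1.52% higher and 1.62% lower), and 0 of 8 after adjustment, against 0.00322%. The groups overlapped in all 8 probe sets of these factors, and did not overlap in 6.69% of all probe sets (3.45% lower and 3.24% higher). In bulk RNA, fewer cells of a type and less RNA per cell cannot be told apart. Precision is limited by the number of arrays. The smallest two-sided p of the exact permutation test is 0.1 in this design.

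Hnf4a was read by 3 probe sets, of which 1392969_at was far above background. It had signals of 255, 215 and 319 in COUP-TFII depleted cells for replicates 1, 2 and 3, against 331, 314 and 339 in control cells. Each COUP-TFII depleted array was below the control array of the same number, but replicate 3 of the depleted cells overlapped with the lowest control array. The depleted cells averaged 263 ± 52.6 and the control cells 328 ± 13.1 (SD, n = 3 each). The log2 fold change was -0.34 (standard error, SE, 0.17; 95% interval -0.73 to 0.058, adjusted p = 1 from unpaired limma), with an exact permutation p of 0.2, two-sided.

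On the log2 scale the SD of this probe set was 0.29 in COUP-TFII depleted cells and 0.058 in control cells, whose arrays lay close together. The difference between same-numbered arrays was -0.38, -0.54 and -0.087 on the log2 scale for replicates 1, 2 and 3. A probe set was lower in all 3 pairs in 14% of all cases. With the replicate block the 95% interval was -0.58 to -0.087, a ratio of 0.67 to 0.94, with an unadjusted p of 0.0135 and an adjusted p of 0.777 from limma. With 1 array left out the log2 fold change ran from -0.49, without COUP-TFII siRNA replicate 3, to -0.20, without COUP-TFII siRNA replicate 2, and stayed below 0 in each case. It was -0.23 with the block and without both replicate 2 arrays.

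The other 2 Hnf4a probe sets were dim. Hnf4a 1369289_at read 17.9, 7.31 and 13.4 in COUP-TFII depleted cells and 8.37, 6.06 and 11.5 in control cells, higher in 3 of 3 same-numbered pairs (13.4% of all probe sets). Hnf4a 1382496_at read 13.1, 8.78 and 1.92 in COUP-TFII depleted cells and 12.0, 6.80 and 21.0 in control cells. Both groups lay at or about the background in these probe sets, so no fold is given for them. The direction of the difference in means was not the same in the 3 Hnf4a probe sets, and none of the 3 differences exceeded the spread between arrays by limma after adjustment.

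**Figure D1:**
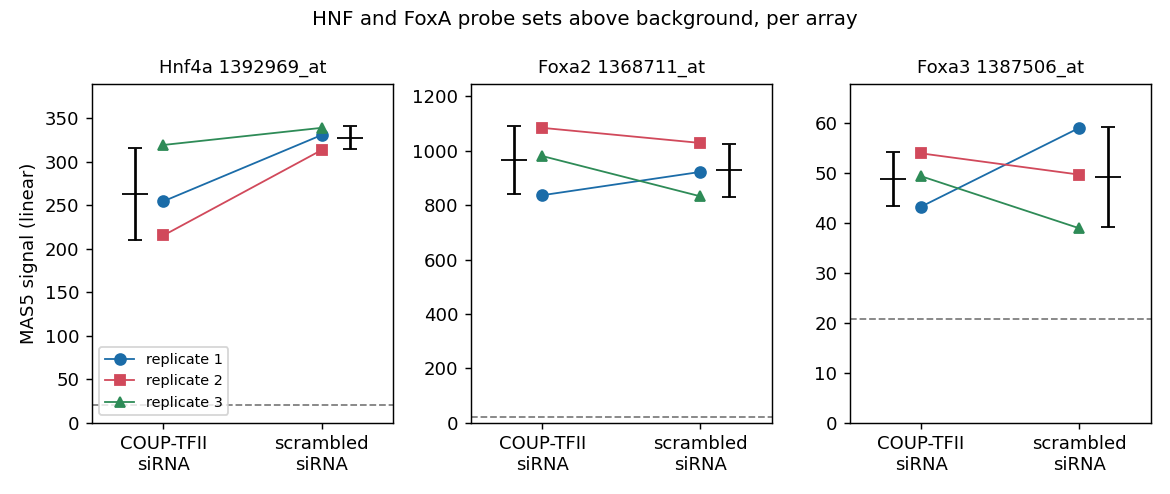
MAS5 signal per array (linear axis from 0) of the 3 probe sets of HNF and FoxA factors above background, in COUP-TFII depleted cells (left) and control cells (right). Coloured points are arrays, lines join arrays of the same replicate number, black bars are mean ± SD (n = 3) and the dashed line is the background scale, 20.7. All 3 lines of Hnf4a rise towards the control cells, those of Foxa2 and Foxa3 cross.

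Foxa2, the FoxA factor known to maintain K-ATP channel gene expression in β-cells, was read by 1 probe set, above background on all 6 arrays. Foxa2 1368711_at had 837, 1084 and 981 in COUP-TFII depleted cells against 922, 1029 and 832 in control cells. The arrays of both groups were interleaved, with the highest and the lowest signal in different groups and only 1.30 times apart. The depleted cells averaged 967 ± 125 and the control cells 928 ± 98.3 (SD, n = 3 each). The change on the log2 scale was 0.057 (SE 0.15, adjusted p = 1 from unpaired limma). Its 95% interval, -0.29 to 0.40, spans ratios of 0.82 to 1.32, and with the replicate block it spans 0.90 to 1.21.

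Foxa3, a FoxA factor best known from liver, was likewise read by 1 probe set above background on all 6 arrays. Foxa3 1387506_at had 43.3, 53.9 and 49.4 in COUP-TFII depleted cells against 59.0, 49.7 and 38.9 in control cells. Here both the highest and the lowest array were control arrays. The depleted cells averaged 48.9 ± 5.36 and the control cells 49.2 ± 10.1 (SD, n = 3 each), with a log2 difference of 0.0041 (SE 0.30, adjusted p = 1 from unpaired limma). The 95% interval of the ratio, 0.63 to 1.61, is wide, and ratios within it are compatible with these arrays.

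Foxa1, which in the endocrine pancreas acts beside Foxa2, was read by 1 probe set, and that probe set was dim. Foxa1 1369834_at had 4.11, 4.84 and 13.6 in COUP-TFII depleted cells and 13.6, 5.91 and 5.78 in control cells. In each group 1 array read 13.6 and the other 2 lay between 4.11 and 5.91, so the groups overlapped almost fully.

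Onecut1 was read by 2 probe sets, both dim. Onecut1 1371034_at had 17.2, 1.495 and 19.4 in COUP-TFII depleted cells and 29.0, 13.5 and 14.2 in control cells, and only replicate 1 of the control cells was above 20.7. Onecut1 1387760_a_at had 19.2, 0.448 and 1.35 in COUP-TFII depleted cells and 12.1, 12.9 and 14.7 in control cells. In the second probe set 2 of the depleted arrays were far below the control arrays, while the third was above all of them. The lowest depleted array in both probe sets was replicate 2, the replicate number for which the median signal of the arrays was lowest (31.2 in COUP-TFII depleted cells and 29.9 in control cells, against 35.9 to 39.4 on the other 4 arrays). The part of that replicate in the result was not tested. Both groups lay at background, so no fold is given.

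Over the 5 dim probe sets of Hnf4a, Foxa1 and Onecut1, 2 of the 30 signals exceeded 20.7. The SEs of their log2 differences were 0.65 to 1.11, against 0.15 to 0.30 for the 3 brighter ones. RNA of Foxa1 and Onecut1 was thus not detectable above the background scale on most arrays of either group. Signals of different probe sets are not compared with each other as levels, since probes differ in how they bind.

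**Figure D2:**
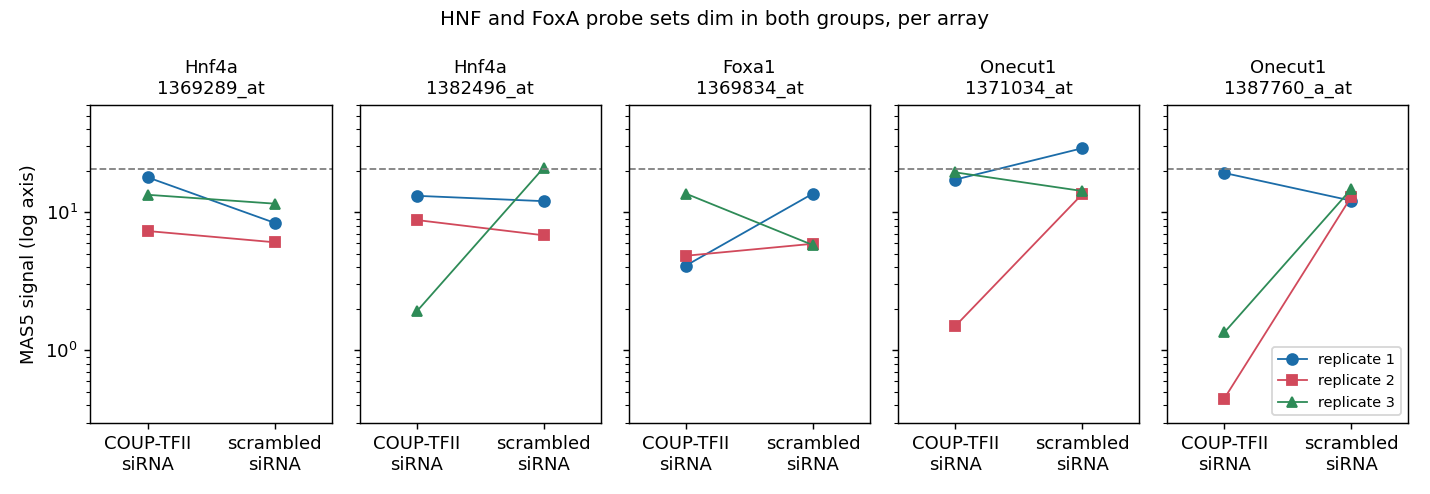
MAS5 signal per array (log axis) of the 5 dim probe sets of Hnf4a, Foxa1 and Onecut1, in COUP-TFII depleted cells (left) and control cells (right). Points are arrays, lines join arrays of the same replicate number, and the dashed line is the background scale, 20.7, which 2 of the 30 points exceed.

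**Figure D3:**
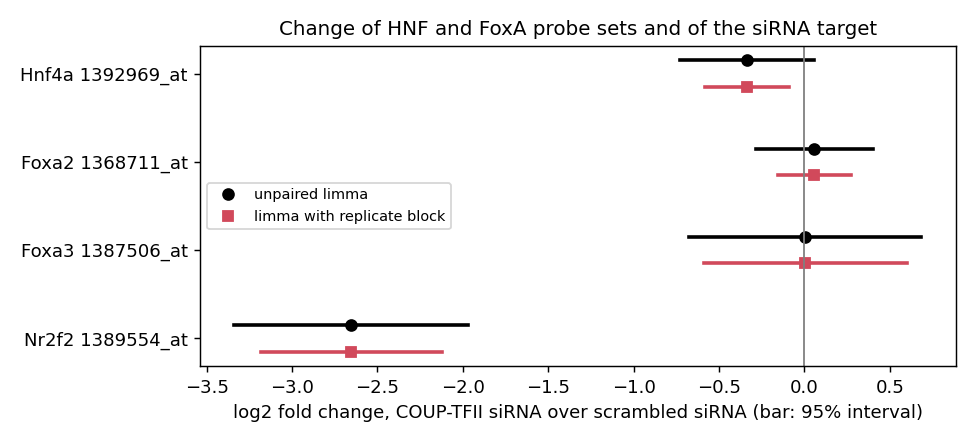
log2 fold change (depleted over control cells) of Hnf4a 1392969_at, Foxa2 1368711_at, Foxa3 1387506_at and Nr2f2 1389554_at, with 95% intervals from unpaired limma (black) and from limma with the replicate block (red). The intervals of Foxa2 and Foxa3 include 0 in both fits, that of Hnf4a lies at -0.58 to -0.087 with the block, and Nr2f2 is at -2.65.

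Factors that work beside HNF and FoxA proteins were read from a list of 14, of which 10 had a probe set and 9 were not dim. The other 4 were matched to none and were not analysed here. None of the 10 passed adjustment by unpaired limma or with the block. At an unadjusted p up to 0.05 each fit held 0 higher and 1 lower, Nr5a2 in the unpaired fit and Prox1 with the block. Of all probe sets 1.34% were lower at such a p in the unpaired fit and 3.51% with the block. Of the 9 that were not dim 8 were lower and 1 higher by mean, where 49.7% of all probe sets that were not dim were lower. Their median log2 fold change was -0.14, against 0.0018 over all such probe sets. With the dim gene it was -0.15, and -0.37 without COUP-TFII siRNA replicate 3 to -0.082 without COUP-TFII siRNA replicate 2. The direction count was not stable. Over all 10 genes 9 were lower and 1 higher. Reading a gene by the middle value of its probe sets, not its brightest, left 7 lower and 3 higher. The same 7 and 3 were found without COUP-TFII siRNA replicate 1 or 2 and without scrambled siRNA replicate 1 or 3. The block fit without both replicate 2 arrays gave them too. Without COUP-TFII siRNA replicate 3 or scrambled siRNA replicate 2, 9 stayed lower. Prox1, a homeobox factor of liver and pancreas development, read 187, 189 and 170 in COUP-TFII depleted cells against 216, 264 and 206 in control cells, with groups that did not overlap. Its change on the log2 scale was -0.32 (SE 0.16, adjusted p = 1 from unpaired limma, unadjusted p = 0.0155 with the block). Without both replicate 2 arrays the block fit held 0 of the 10 at such a p. Gata6, a zinc finger factor of early pancreas, read 40.1, 31.2 and 41.1 in COUP-TFII depleted cells against 38.3, 66.8 and 74.8 in control cells, a log2 difference of -0.63 (SE 0.35). The factor with an unadjusted p of 0.0327 in the unpaired fit was Nr5a2, a nuclear receptor of liver and exocrine pancreas that was picked once its values were known. It was dim, at 2.77, 3.86 and 1.86 in COUP-TFII depleted cells and 9.55, 7.19 and 10.2 in control cells.

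Gata4, another zinc finger factor, had a log2 fold change of -0.17 and Pdx1, a homeobox factor that maintains β-cells, of -0.16, and neither passed in the unpaired or the block fit. Gata4 was at -0.051 without COUP-TFII siRNA replicate 2 and -0.013 with the block and without both replicate 2 arrays, and Pdx1 at -0.096 without scrambled siRNA replicate 1. Pdx1 1369516_at read 391, 414 and 429 in COUP-TFII depleted cells and 505, 472 and 409 in control cells. In Pdx1 the depleted arrays stayed below 2 of the 3 control arrays and overlapped with the other one.

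Onecut2, the paralog of Onecut1 that β-cells are known to express, was read by 4 probe sets, all above background on all arrays. The brightest, 1394699_at, read 214, 89.0 and 273 in COUP-TFII depleted cells and 212, 117 and 255 in control cells. In all 4 probe sets both replicate 2 arrays were below the other 4 arrays. In 1376865_at replicate 2 was 1.42 lower on the log2 scale than the mean of the other replicates in COUP-TFII depleted cells and 1.37 lower in control cells. The difference between the groups was small beside this, with log2 fold changes of -0.092, -0.19, 0.17 and 0.11 for 1394699_at, 1376865_at, 1378173_at and 1390626_at, none of which passed in either fit. The part of the lower median signal of the replicate 2 arrays in this was not tested.

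Of 24 listed targets of HNF4α and other hepatocyte nuclear factors, 20 had a probe set and 8 were not dim. None passed adjustment in either fit, and 0 passed at an unadjusted p up to 0.05 in either direction, by unpaired limma or with the block. Of all probe sets 2.31% and 6.23% had such a p in these fits. Of the 8 that were not dim 6 were lower and 2 higher by mean, with a median log2 fold change of -0.10. Over all 20, of which 12 were dim, the median was -0.13, and -0.35 without scrambled siRNA replicate 2 to -0.058 without scrambled siRNA replicate 3. Slc2a2, for the glucose transporter GLUT2, read 5165, 5177 and 6780 in COUP-TFII depleted cells against 4889, 3886 and 6030 in control cells. Slc2a2 was higher in 3 of 3 pairs, with overlapping groups and a log2 difference of 0.22 (SE 0.21, adjusted p = 1 from unpaired limma). It was 0.060 without scrambled siRNA replicate 2 and 0.11 after quantile normalization. Kcnj11 1391007_s_at, for the pore subunit of the K-ATP channel, had a log2 difference of -0.086 (SE 0.13), with -0.077 and 0.16 at its other probe sets, and Pklr 1368651_at, for liver-type pyruvate kinase, -0.14 (SE 0.15). Anks4b, an ankyrin-repeat protein and HNF4α target, had 0.078 (SE 0.15). Most of the typical liver targets, among them the apolipoproteins Apoa1, Apoa2, Apoa4, Apob, Apoc2 and Apoc3, were dim.

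Of 13 FoxA targets 12 had a probe set, 8 of them not dim. Of these 8, 5 were lower and 3 higher by mean, with a median log2 fold change of -0.066. Over all 12 the median was -0.15, and -0.24 without scrambled siRNA replicate 3 to -0.066 without COUP-TFII siRNA replicate 1. None passed adjustment in either fit. At an unadjusted p up to 0.05 there were 0 higher and 0 lower in the unpaired fit, and 1 higher and 0 lower with the block. Of all probe sets 2.72% were higher at such a p with the block. Abcc8, for the sulfonylurea receptor subunit of the K-ATP channel, read 464, 492 and 655 in COUP-TFII depleted cells against 541, 714 and 514 in control cells, a log2 difference of -0.14 (SE 0.19). Hadh 1370237_at, for a mitochondrial dehydrogenase of fatty acid oxidation, had a log2 difference of -0.046 (SE 0.17), against 0.33 at its other probe set, so the direction is not settled. Igfbp1, an insulin-responsive FoxA target of liver, read 50.1, 31.3 and 49.2 in COUP-TFII depleted cells and 41.3, 21.8 and 34.8 in control cells, higher in 3 of 3 pairs with a log2 difference of 0.43 (SE 0.40).

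The FoxA target that passed at an unadjusted p with the block was Gcg, likewise picked once its values were known. Gcg 1369888_at read 8056, 4789 and 817 in COUP-TFII depleted cells and 6313, 3397 and 394 in control cells. It was higher in 3 of 3 pairs, by 1.28, 1.41 and 2.07 times, while its 6 arrays spanned 20.4-fold. Its log2 fold change was 0.63, with an SE of 1.08 in the unpaired fit and a 95% interval of 0.33 to 0.94 with the block (adjusted p = 0.566 from limma). Without scrambled siRNA replicate 3, which broke that pair, the unpaired value was -0.55. With the block and without both replicate 2 arrays it was 0.70.

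The 7 listed targets of Onecut1 include Hnf4a and Foxa2 themselves. Of these 6 had a probe set and 5 were not dim, of which 3 were higher and 2 lower by mean, with a median log2 fold change of 0.037. Over all 6 the median was 0.047 and its sign was not stable, at -0.069 without scrambled siRNA replicate 2, 0.18 without scrambled siRNA replicate 3 and -0.21 with the block and without both replicate 2 arrays. None passed adjustment in either fit, and at an unadjusted p up to 0.05 the unpaired fit held 0 and the block fit 1, Hnf4a, which was lower. Of all probe sets 3.51% were lower at such a p with the block. Neurog3, the endocrine precursor gene, was dim in both groups. Over all partner and target lists, the HNF and FoxA factors left out, 40 of 47 distinct genes were measured and 23 were not dim. The groups did not overlap in 2 of the 40, Prox1 and Nr5a2, against 6.69% of all probe sets.

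**Figure D4:**
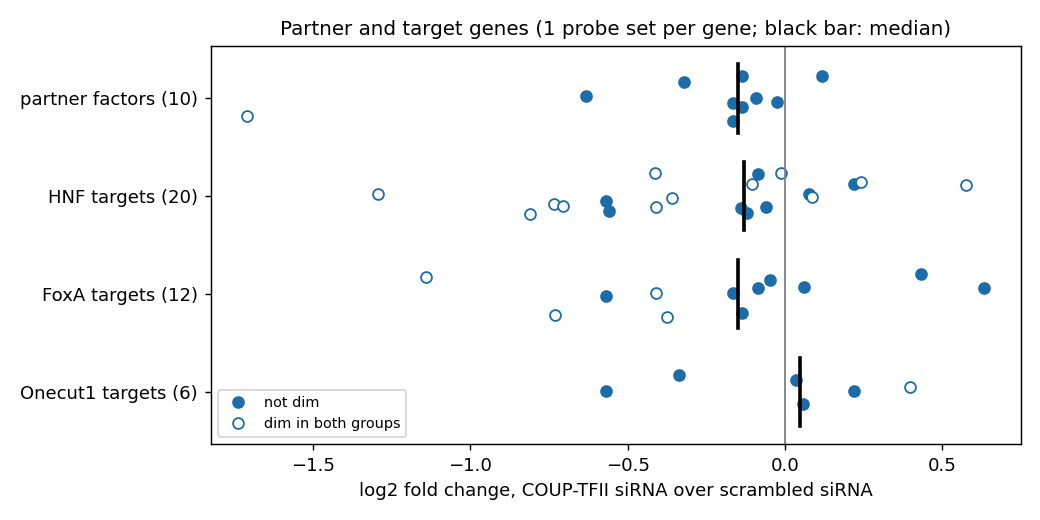
log2 fold change (depleted over control cells) of each measured gene of 4 lists, 1 probe set per gene, with the number of genes in brackets and vertical scatter for display only. Open points are dim in both groups, black bars are medians over open and filled points, which lie at -0.15, -0.13, -0.15 and 0.047 from top to bottom. The lists share genes, among them Ttr, Pck1, Kcnj11, Slc2a2 and Pdx1, so their medians are not independent.

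The genes most like Hnf4a, Foxa2 and Foxa3 across the 6 arrays were picked by Pearson's r of log2 signals, out of 12243 other probe sets with 1 symbol and a signal above 20.7 on all arrays. They are a description over 6 arrays that share 2 groups and 3 replicate numbers. With 12243 candidates and 6 arrays the highest r values are high by selection, and no link between these genes was tested. For Hnf4a 1392969_at they were Sorl1 1394786_at (r = 0.989), a sorting receptor, Prkacb 1371835_at (r = 0.983), a catalytic subunit of protein kinase A, and Cdc14a 1376782_at (r = 0.982), a phosphatase. Sorl1 read 270, 238 and 378 in COUP-TFII depleted cells against 387, 375 and 425 in control cells. Like Hnf4a it was lower in the depleted array of each pair and lowest in replicate 2, a likeness that follows from how it was picked. For Foxa2 they were Rbm38 (r = 0.987), an RNA-binding protein, Foxk2 (r = 0.984), a forkhead factor of another subfamily, and Gatc (r = 0.984), a subunit of a mitochondrial amidotransferase. For Foxa3 they were Usp42 (r = 0.990), a deubiquitinase, Cap1 (r = 0.988), an actin regulator, and Wdr41 (r = 0.976). After quantile normalization Cap1, whose log2 signals span only 0.29, had an r of 0.65 with Foxa3, and the other 8 had r from 0.906 to 0.992.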

How the data were processed

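RNA of 6 samples, 3 per group, was measured on Affymetrix rat 230 2.0 arrays. The intensity values the authors deposited are linear MAS5 signals, 1 for each probe set of an array (MAS5 version not given in the sources used here), after background subtraction and scaling to reference probes. The table holds 31099 probe sets, of which 57 controls were left out of the tests, and no detection calls. Before taking log2, a floor of 1 was put on the signals, which raised 1.85% to 5.49% of those of an array, and no other normalization was applied. A deposited value near background therefore weighs heavily on a log2 fold change. The comparison used limma (version 3.58.1, R 4.3.3; lmFit, eBayes with an intensity trend), unpaired and two-sided, over 31042 probe sets, and the fits were tested on simulated data. The limma p-values set the difference of group means against the spread between samples, moderated over all probe sets. In the block fit this is the spread left after the replicate number. The labels call these samples biological replicates.

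Symbols were taken from GEO's annotation of the platform. It names a single gene for 20826 probe sets. The 436 with several symbols and the 9780 with none were not named. A gene of a list was read by its brightest probe set. Promoter windows came from RefSeq, build GRCr8. Both groups carry replicate numbers 1 to 3, and deviations from the group means correlated at 0.111, 0.231 and 0.163 for equal numbers and from -0.146 to -0.0104 for different ones, so the numbers were taken to pair the arrays and a fit with the number as a block was run. The deviations of a group sum to 0 for each probe set. Positive values for equal numbers thus go with negative ones for different numbers, and part of the contrast is arithmetic. The labels do not state a pairing. Of a list the text names up to 4 genes by lowest p at or above the median log2 signal of 5.07, Onecut2, Slc2a2, Kcnj11, Abcc8, Pdx1 and Hadh in any case, and all probe sets of the HNF and FoxA factors. These genes, the lists and the tests were chosen with earlier results of these data known. Plots were made in Python 3.11.15 (matplotlib 3.10.9).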

Additional observations from a re-analysis of the deposited data

How the results depend on the processing

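Over all probe sets, 0 passed adjustment in unpaired limma, 1 by the methods' t-test, 5 with the replicate block, 4 with the block after quantile normalization and 0 with the block and without both replicate 2 arrays. At an unadjusted p up to 0.05 the unpaired fit held 302 higher and 415 lower. The higher count was 472 by the t-test, 516 without the intensity trend, 85 and 50 with filters at the highest Bacillus signal and at the median signal, 844 with the block, 944 with block and quantile normalization, and 596 with the block and without both replicate 2 arrays. The lower count was 174 and 130 with the filters, 1089 and 1037 with the block before and after quantile normalization, 834 without both replicate 2 arrays, and 311 to 647 with 1 array left out. Of the 8 probe sets of the HNF and FoxA factors, 1 had such a p with the block, both as deposited and quantile-normalized, 0 with the block and without both replicate 2 arrays, and the count was 0 to 1 when leaving out 1 array. Of the partner and target genes the counts were 1 in the unpaired fit, 2 with the block before and after quantile normalization, 0 with either filter, and 0 to 1 with 1 array left out. Nr2f2 1389554_at passed adjustment with the block (-2.65) and with block and quantile normalization (-2.63), but not with the block and without both replicate 2 arrays (-2.43, adjusted p = 0.402 from limma). The cause of these shifts was not tested.

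Directions turned for several log2 fold changes that passed no threshold. That of Foxa3 was -0.00017 after median centring and -0.053 with the block and without both replicate 2 arrays, a setting chosen after seeing the data, like block and quantile normalization together, that also gave 0.064 for Abcc8, -0.016 for Anks4b and 0.058 for Onecut2 1394699_at. The fits with 1 array left out were unpaired, and each broke 1 same-numbered pair, so differences between replicate numbers enter their values. With 1 array left out the values spanned -0.029 to 0.16 for Foxa2, -0.15 to 0.15 for Foxa3, -0.29 to 0.0088 for Abcc8, -0.55 to 1.61 for Gcg, -0.14 to 0.081 for Hadh and -0.037 to 0.16 for Anks4b. For Onecut2 they spanned -0.65 to 0.28 (1376865_at), -0.25 to 0.61 (1378173_at), -0.084 to 0.36 (1390626_at) and -0.42 to 0.39 (1394699_at), each lowest without scrambled siRNA replicate 2 and highest without COUP-TFII siRNA replicate 2. The fitted differences of the dim Foxa1 1369834_at (-0.80 to 0.15) and Onecut1 1371034_at (-1.81 to 0.044) turned too, but at background they are no measured folds. That of the other dim Onecut1 probe set, 1387760_a_at, stayed below 0 (-3.51 to -1.38), but is no measured fold either. Among values above background that kept their sign, those of Hnf4a 1392969_at (-0.49 to -0.20) and Prox1 (-0.39 to -0.21) moved by over 1.5 times. So did those of Slc2a2 (0.060 to 0.38), Gata4 (-0.32 to -0.051), Pdx1 (-0.25 to -0.096), Pklr (-0.26 to -0.051), Igfbp1 (0.17 to 0.66) and Kcnj11 1391007_s_at (-0.13 to -0.040). Gata6 moved from -0.63 to -0.40 with the block and without both replicate 2 arrays. The median of the Onecut1 targets also turned, from -0.069 to 0.18 with 1 array left out and at -0.21 with the block and without both replicate 2 arrays. The dim probe sets were not in the filtered fits. With 3 arrays a group, changes of Foxa1 and Onecut1, near background, could not be resolved.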
